A study of Mus musculus with 4 samples.

Results

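Tmem176a, Tmem176b and 7 genes of the Ms4a family encode small membrane proteins that cross the membrane several times. They were followed in double positive thymocytes, immature T cells of the thymus that display both CD4 and CD8, on 4 Affymetrix mouse expression arrays. All probe sets annotated with 1 of their symbols alone were taken, which gave 9 of 18193 named genes and 19 of the 34945 probe sets with a single gene symbol. These 9 genes were chosen from results of the same comparison on these arrays, so their differences between the groups are a description and carry no test. Both groups, 2 mice each, carried the Ikf/f allele pair at Ikzf1, the gene of the zinc finger protein Ikaros. The Ikf/f CD4-Cre+ mice (Cre-positive) also carried the CD4-Cre transgene that is meant to delete Ikaros, and the Ikf/f CD4-Cre- mice (Cre-negative) did not. CD4-Cre uses Cd4 regulatory sequence, which is active from the double positive stage onward in T lineage cells. Every array came from Ikf/f mice, so the effect of Cre alone and that of Ikaros loss cannot be told apart. The labels name no age, isolation method or hybridisation batch.

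TMEM176A and TMEM176B are tetraspan proteins of intracellular vesicles, related in layout to the MS4A proteins. They are known from dendritic cells, macrophages and lymphocytes that use the nuclear receptor RORγt, and TMEM176B acts as a cation channel. MS4A proteins form a family of tetraspan proteins that sit beside immune receptors. The best known are MS4A1, the B cell surface protein CD20, and MS4A2, the beta chain of the high-affinity IgE receptor. MS4A4B and MS4A6B occur in T cells, whereas MS4A4C, MS4A6C, MS4A6D and MS4A7 are known mainly from monocytes and macrophages.

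Values are RMA log2 signals, 1 per probe set and array, and differences are Cre-positive minus Cre-negative. Pairs of values name sample 1 before sample 2 of a group, first the group without Cre and then the group with it. Signals of different probe sets are not compared with each other. Array medians lay between 5.19 and 5.25, and Pearson's r across all probe sets was 0.992 and 0.994 within the groups against 0.984 to 0.987 between them, where probe sets are not independent replicates. Ikzf1 differed by −1.53 in its brightest probe set and by −0.88 in the mean of its probe sets. The sex-linked transcript Xist read 12.75 in Cre-negative sample 2 and 4.73 to 5.37 elsewhere, and the Y-linked Kdm5d read 2.86 there and 8.23 to 8.37 elsewhere, so this array alone had the female pattern. The mean level of 13 double positive genes, among them Rag1, Cd4 and Cd8a, lay between 11.96 and 12.04 on every array. That shows the arrays to be alike in this mean and does not by itself identify the cells. Of these 13, 0 passed in limma, with 4 at an unadjusted p under 0.05. Among them were Ptcra (1.16), which encodes the pre-TCR alpha chain, and Cd8a (−0.30). By their brightest probe sets 2 of the 13 were higher and 7 lower without overlap, with a median difference of −0.11. Over all probe sets with a single symbol the shares were 26.6% higher and 19.4% lower.

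The Tmem176 pair stood apart from the Ms4a genes in size. All 4 Tmem176 probe sets were higher on both Cre-positive arrays than on both Cre-negative arrays, by 1.51 to 2.09, which is 2.85-fold to 4.27-fold. None of the 15 Ms4a probe sets differed by 1 or more. Their differences ran from −0.31 to 0.71 with a median of 0.25, against a median of 0.02 over all probe sets with a single symbol. Of the 19 probe sets, 10 were higher without overlap, 1 was lower without overlap and 8 overlapped between the groups. Over all probe sets with a single symbol, 26.6% were higher and 19.4% lower without overlap, and 1.08% were higher by at least 1 without overlap.

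**Figure D1:**
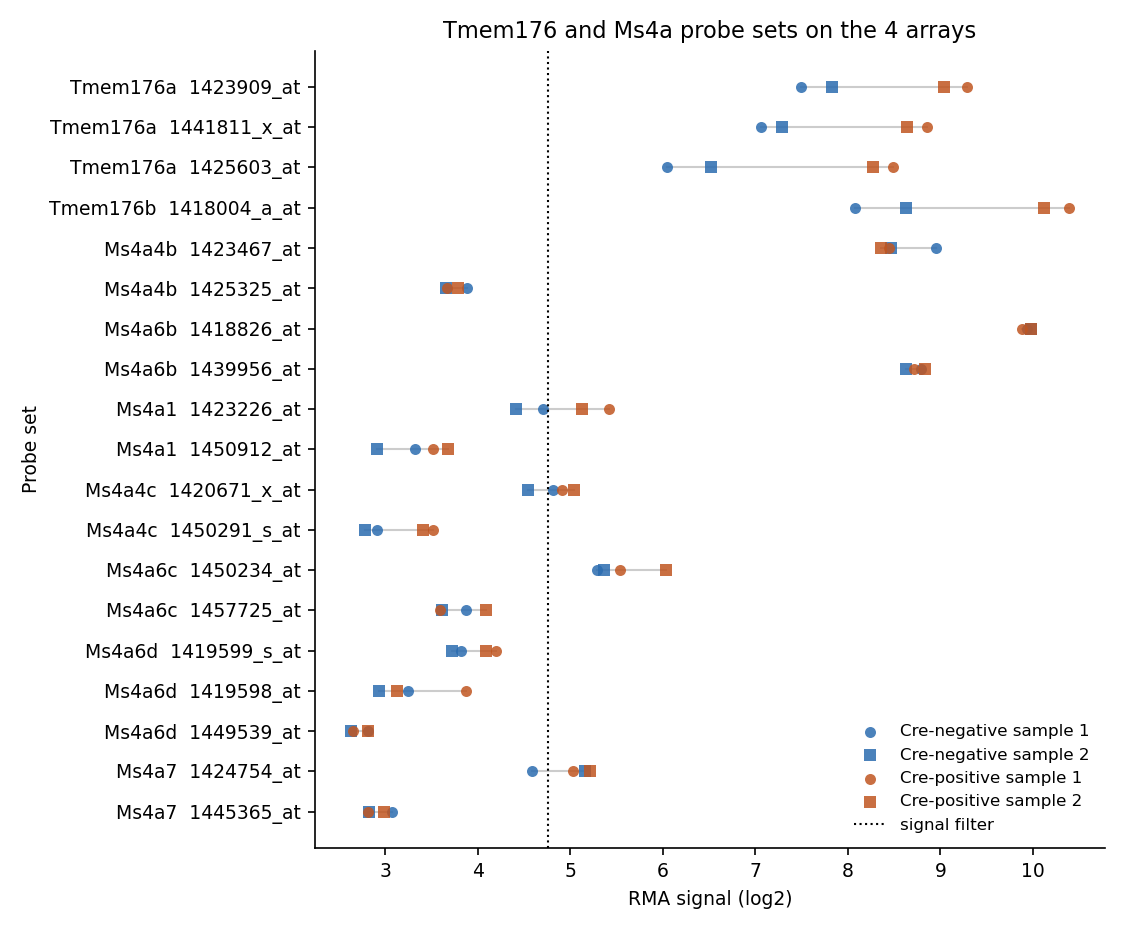
RMA log2 signal (horizontal axis) of the 19 probe sets (rows) on each array. Blue marks Cre-negative and orange Cre-positive mice, circles sample 1 and squares sample 2, and the dotted line marks the signal filter of 4.76; the 4 Tmem176 rows are split by group, whereas most Ms4a rows are not or lie left of the line.

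Tmem176a was read by 3 probe sets. The first, 1423909_at, read 7.49 and 7.82 without Cre against 9.29 and 9.04 with Cre. Its means were 7.66 ± 0.23 and 9.17 ± 0.18 (SD, n = 2 each), a difference of 1.51. Probe set 1425603_at read 6.05 and 6.52 without Cre against 8.48 and 8.27 with Cre. That was the widest separation of the 3, a difference of 2.09 with an empty interval of 1.75 between the groups. Probe set 1441811_x_at, whose suffix marks probes that can bind other transcripts, read 7.06 and 7.29 against 8.86 and 8.64, a difference of 1.58. The 3 probe sets thus had the same order of arrays.

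Tmem176b had 1 probe set, 1418004_a_at. It read 8.08 and 8.62 without Cre against 10.39 and 10.13 with Cre. The means were 8.35 ± 0.38 and 10.26 ± 0.19 (SD, n = 2 each), a difference of 1.90 or 3.74-fold. The smallest empty interval between the groups among the 4 probe sets was 1.22. Within the groups, Cre-negative sample 2 lay above sample 1 by 0.24 to 0.54 and Cre-positive sample 1 above sample 2 by 0.21 to 0.26 on all 4 probe sets. Cre-negative sample 2, the array with the female pattern, was therefore the nearer of the 2 controls to the Cre-positive arrays.

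In the limma fit across 11639 genes, each read by its brightest probe set and kept at a mean signal of at least 4.76, 129 genes (1.11%) were called higher and 31 (0.266%) lower at an adjusted p under 0.05. Called genes among the 9 were Tmem176a and Tmem176b, both higher, and 0 lower. Since the 9 were selected on this contrast, nothing is read from these counts. Of the kept genes, 57 had a larger difference than Tmem176b and 97 a larger one than Tmem176a. With any single array left out neither gene was called; such a fit has 1 array in a group, which is assumed to vary like the other group, and calls over all genes fell from 160 to between 3 and 99. Meanwhile the difference lay between 1.34 and 1.68 for Tmem176a and between 1.63 and 2.17 for Tmem176b. Without Cre-negative sample 2 it was 1.68 and 2.17.

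The pair lies on chromosome 6 on opposite strands, and in the RefSeq table (GRCm38.p6) the span of Tmem176b reaches past its starts in the promoter table and takes in the span of Tmem176a. The promoter table holds 2 starts for Tmem176a and 3 for Tmem176b. The nearest facing starts of the pair are separated by the following 108 bases (chr6:48841375-48841482, plus strand, GRCm38.p6, RefSeq), shown because both genes that moved most start at its ends. Capitals mark GGGAA, the core letters of the Ikaros binding sequence, on either strand.
Tmem176a-Tmem176b stretch: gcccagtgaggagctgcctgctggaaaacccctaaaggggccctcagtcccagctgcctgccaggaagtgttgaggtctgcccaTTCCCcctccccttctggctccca
It is 63.9% G and C and holds 1 GGGAA match, on the minus strand at positions −24 to −20 from the Tmem176a start. The longer TGGGAA, which contains GGGAA, and AGGTCA, a sequence bound by ROR nuclear receptors, did not occur in it on either strand.

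Of the 9 genes, 7 had windows in the promoter table, 11 windows of 300 bases each, from 250 bases before to 50 after a start. GGGAA occurred in 3 of 5 Tmem176 windows and 4 of 6 Ms4a windows, against 62.7% of all 32851 windows. TGGGAA occurred in 1 of 5 and 1 of 6, against 25.6%. AGGTCA occurred in 0 of 11, against 16.3%. Windows of neighbouring starts overlap, so the Tmem176 windows share bases. These matches are letters in a window and not measured binding.

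Ms4a1 and Ms4a6d have no entry there. The Ms4a genes lie in a cluster on chromosome 19, which holds all 21 Ms4a genes of the RefSeq table. Read in gene direction from a single start per gene, Ms4a4b and Ms4a4c are the most alike in the 250 bases before the start. They are 70.8% identical in a global alignment, against at most 53.0% in any other pair of the 7 genes. Their last 108 bases before the start are shown because they are the closest pair; capitals again mark GGGAA (chr19:11443450-11443557 for Ms4a4b and chr19:11407553-11407660 for Ms4a4c, plus strand).
Ms4a4b: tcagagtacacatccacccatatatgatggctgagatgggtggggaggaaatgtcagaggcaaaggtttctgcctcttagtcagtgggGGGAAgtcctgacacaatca
Ms4a4c: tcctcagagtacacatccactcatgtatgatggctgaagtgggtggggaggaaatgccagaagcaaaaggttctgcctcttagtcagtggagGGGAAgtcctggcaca
Ms4a6b and Ms4a6c share 48 bases without a mismatch, at positions −118 to −71 from the Ms4a6b start (chr19:11518441-11518488) and −49 to −2 from the Ms4a6c start (chr19:11469319-11469366), both on the plus strand.
Ms4a6b and Ms4a6c shared run: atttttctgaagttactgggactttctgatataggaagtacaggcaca
The next longest run shared by a pair, read in the same way, has 20 bases and lies in Ms4a4b and Ms4a4c. Opposite strands were not compared, so sequence that the overlapping Tmem176 windows share is not counted.

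The T cell members did not separate upward. Ms4a6b read 9.94 and 9.98 without Cre against 9.88 and 9.98 with Cre on probe set 1418826_at, a difference of −0.03. Its other probe set read 8.79 and 8.63 against 8.72 and 8.83, a difference of 0.07, so the groups overlapped on both. Ms4a4b, which associates with the costimulatory receptor GITR, read 8.95 and 8.47 against 8.44 and 8.36 on its brighter probe set. The groups were separated by only 0.02 and the difference of −0.31 was smaller than the 0.34 SD of the Cre-negative mice. It was −0.06 without Cre-negative sample 1 and −0.55 without Cre-negative sample 2. Its dimmer probe set stayed between 3.65 and 3.89 on all arrays. The GITR gene Tnfrsf18 read 9.28 and 8.96 without Cre against 9.21 and 9.12 with Cre.

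The B cell member Ms4a1 was low and shifted upward in both of its probe sets. The brighter one, 1423226_at, read 4.71 and 4.42 without Cre against 5.42 and 5.13 with Cre, means of 4.56 ± 0.21 and 5.28 ± 0.21 (SD, n = 2 each). The groups did not overlap, with 0.42 between them, and both Cre-negative values lay under the signal filter. The dimmer one read 3.32 and 2.92 against 3.52 and 3.68, a difference of 0.48. Of 10 other B cell markers measured, 4 were kept by the filter and 0 passed in limma, with 0 at an unadjusted p under 0.05. Pax5, the B lineage regulator, differed by 0.18 and the inhibitory receptor gene Cd22 by 0.13. Bank1, a B cell adaptor gene under the filter by its mean, read 3.88 and 4.20 without Cre against 4.74 and 5.52 with Cre, a difference of 1.09. In all, 4 of the 10 were higher without overlap and 1 was lower, against 26.6% and 19.4% of all probe sets with a single symbol. Ighm, the mu heavy chain gene, differed by −0.27, though its 11 probe sets ran from −0.34 to 3.17. The mean level of this list was 5.52 and 5.64 without Cre against 5.61 and 5.79 with Cre, so its groups overlapped. At this signal a change in a few B cells and a change of RNA per thymocyte cannot be told apart in bulk RNA.

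Of the 9 probe sets of the myeloid members, 4 were higher without overlap and 5 overlapped. The share higher without overlap was 26.6% over all probe sets with a single symbol. Only Ms4a6c had a probe set above the filter on all arrays. Ms4a4c read 4.81 and 4.54 without Cre against 4.91 and 5.05 with Cre on probe set 1420671_x_at, a difference of 0.30. On 1450291_s_at it read 2.91 and 2.79 against 3.51 and 3.41, a difference of 0.61. Neither overlapped, but both suffixes mark probes that can bind several transcripts, and Ms4a4c has no other probe set. Its difference was 0.17 without Cre-negative sample 2. The contrast with its near copy Ms4a4b was not tested.

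Ms4a6c read 5.29 and 5.37 without Cre against 5.54 and 6.03 with Cre on its brighter probe set. The difference was 0.46, larger than the SD of 0.05 of the Cre-negative mice and near the 0.35 of the Cre-positive mice, of which sample 2 was the higher. Its dimmer probe set, 3.88 and 3.62 against 3.59 and 4.09, overlapped. Ms4a6d stayed under the filter on every array in all 3 probe sets, between 2.63 and 4.20; the brightest differed by 0.38 without overlap and the others by 0.41 and 0.01 with overlap. Ms4a7 read 4.59 and 5.16 against 5.04 and 5.21 on its brighter probe set and overlapped, and its other probe set differed by −0.05. Of the 15 Ms4a probe sets, 8 lay under the filter on all 4 arrays, in the lower part of the signal range.

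**Figure D2:**
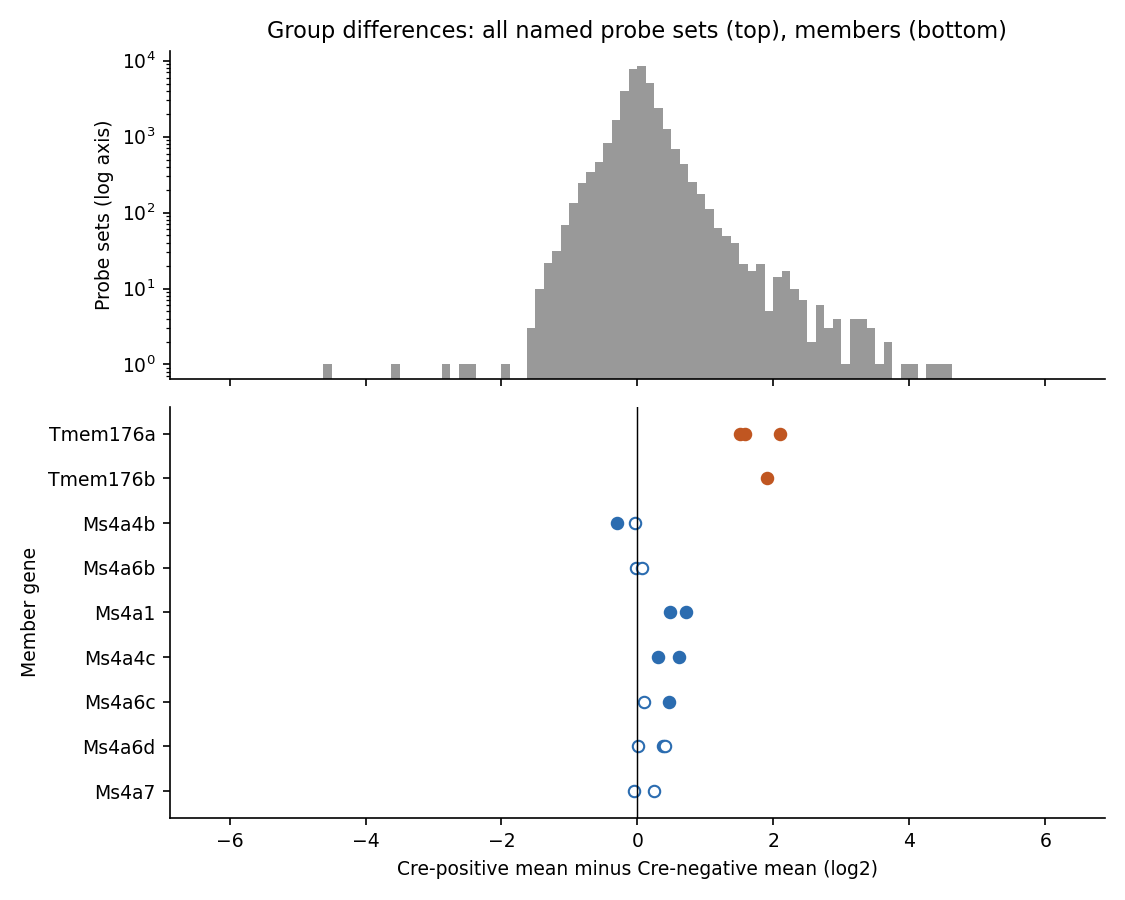
Difference between group means in log2 units (horizontal axis) for all 34945 probe sets with a single symbol (top, number per bin on a log axis) and for each member probe set (bottom). Filled points are probe sets whose arrays did not overlap between groups and open points those that did; the Tmem176 points lie between 1.51 and 2.09 and all Ms4a points between −0.31 and 0.71.

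The rest of the Ms4a family, left over once the members had been chosen, is not an unselected comparison. The arrays named 10 such genes, on 11 probe sets, of which 9 lay under the filter on all arrays. Their differences ran from −0.30 to 0.27 with a median of −0.02. The 1 kept by the filter, Ms4a15, read 6.48 and 6.62 without Cre against 6.23 and 6.28 with Cre; it did not pass in limma (difference −0.30, SE 0.12, adjusted p = 0.239), though its unadjusted p was 0.0484. Ms4a2 and the myeloid progenitor gene Ms4a3 differed by 0.05 and 0.27.

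Marker lists of cells in which these genes are known were read on the same arrays. Over all probe sets with a single symbol, 26.6% were higher and 19.4% lower without overlap. Of 10 macrophage and monocyte markers kept by the filter, the lysozyme gene Lyz2 rose by 1.85 ± 0.17 (difference ± SE, limma adjusted p = 0.0181), 0 fell and 9 did not pass. Tyrobp, a signalling adaptor, differed by 0.82 (limma adjusted p = 0.0502) and the complement gene C1qa by 1.11 (adjusted p = 0.056). The median of the 10 was 0.66, against 0.06 over all kept genes, and 5 had an unadjusted p under 0.05 in limma. The mean level of the 14 measured was 4.87 and 4.97 without Cre against 5.42 and 5.40 with Cre. Of these 14, 8 were higher without overlap, whereas Adgre1, which encodes F4/80, differed by −0.03, Cd14 by 0.03 and Csf1r by 0.19. For Csf1r that was the brightest of 3 probe sets, whose differences ran from 0.19 to 1.21. Cd14, Cx3cr1 and Mertk lay under the filter on every array.

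Of 12 dendritic cell markers kept, H2-Ab1 of MHC class II rose by 1.58 ± 0.22 (SE, limma adjusted p = 0.0453) and the transcription factor gene Irf8 by 1.08 ± 0.16 (adjusted p = 0.0495), 0 fell and 10 did not pass. Their dimmer probe sets differed by less, down to 0.52 for H2-Ab1 and 0.60 for Irf8. The MHC class II genes H2-Aa and H2-Eb1 differed by 2.25 and 1.68 (limma adjusted p = 0.054 and 0.0531). The 4 probe sets of H2-Aa ran from 0.73 to 2.25. The median of the 12 was 0.58, and the mean level of the 13 measured was 5.88 and 5.61 without Cre against 6.41 and 6.47 with Cre. Of these 13, 9 were higher and 1 lower without overlap, against 26.6% and 19.4% of all probe sets with a single symbol. Among the 12 kept, 6 had an unadjusted p under 0.05 in limma. Bst2 differed by 1.34, Cd74 by 0.89 and Itgax by 0.27. The dendritic lineage genes Zbtb46 and Flt3 differed by −0.14 and −0.16, Siglech by 0.01, and Xcr1, at 3.89 to 3.94 on all arrays, by −0.01. The mean levels of both lists were higher on the Cre-positive arrays, as the Tmem176 probe sets were, with some members at or near 0. Their part in the Tmem176 difference was not tested.

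Of 5 type 3 lymphocyte genes kept, the chemokine receptor gene Ccr6 rose by 0.85 ± 0.12 (SE, limma adjusted p = 0.0485), 0 fell and 4 did not pass; the cytokine gene Il17a stayed under the filter with a difference of 0.07. Of 10 mature T cell genes kept, the cytokine receptor gene Il7r rose by 1.12 ± 0.12 and the tetraspanin gene Cd53 by 1.32 ± 0.17 (SE, limma adjusted p = 0.0271 and 0.0414). The dimmer probe sets of Il7r and Cd53 differed by 0.32 and 0.85. Another 8 genes did not pass, with Itm2a at 0.94, H2-Q2 at −0.98 and Cd69 at −0.75. Of these 10, 6 had an unadjusted p under 0.05 and the median was −0.07; of the 11 measured, 4 were higher and 3 lower without overlap. Of 7 regulatory T cell genes kept, 0 passed in limma, with 2 at an unadjusted p under 0.05; Izumo1r differed by 0.69, Ctla4 by −0.81 and Il2rb by 0.26. Of 5 Fc receptor genes and partners kept, 0 passed in limma, with 1 at an unadjusted p under 0.05. That gene was Clec7a, the beta-glucan receptor Dectin-1, which read 4.44 and 4.94 without Cre against 7.65 and 6.25 with Cre (difference 2.26, limma adjusted p = 0.0795). Fcgr2b and Syk differed by 0.20 and −0.16.

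Granulocyte markers had a mean level of 6.36 in Cre-positive sample 2 and 4.53 to 4.60 on the other 3 arrays, with 0 of 5 passing in limma and 0 at an unadjusted p under 0.05. S100a8, which encodes a calcium-binding granulocyte protein, read 8.38 there and 4.02 to 4.52 elsewhere, Ngp 7.81 against at most 5.42, and Ltf 6.50 against at most 4.58. The Tmem176 probe sets were lower in this sample than in Cre-positive sample 1, whereas Ms4a6c was higher in it. Without it the differences were 1.63 for Tmem176a, 2.04 for Tmem176b and 0.21 for Ms4a6c. Of 6 stromal and epithelial markers kept, Pdgfrb rose by 1.05 ± 0.14 (SE, limma adjusted p = 0.04) and 5 did not pass. The collagen gene Col1a2 read 5.18 and 5.33 against 11.55 and 8.01, and Krt8 differed by 0.43. Epcam, Krt5 and Pecam1 differed by −0.13, −0.004 and −0.04. The median difference was 0.21 over the 6 kept and −0.03 over the 11 measured. Of the 11, 4 were higher and 0 lower without overlap, against 26.6% and 19.4% of all probe sets with a single symbol. The 1 erythroid gene kept, Alas2, differed by −0.03.

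The lists together held 7 called genes. Leaving out Cre-negative sample 1 gave 1 call and leaving out Cre-negative sample 2 gave 0. Leaving out Cre-positive sample 1 gave 5 calls and leaving out Cre-positive sample 2 gave 3. There were 2 calls, Lyz2 and Il7r, with arrays centred on the median of the kept genes. That centring moved the median difference of all kept genes from 0.06 to −0.07 and the share of higher calls from 80.6% to 61.0%.

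**Figure D3:**
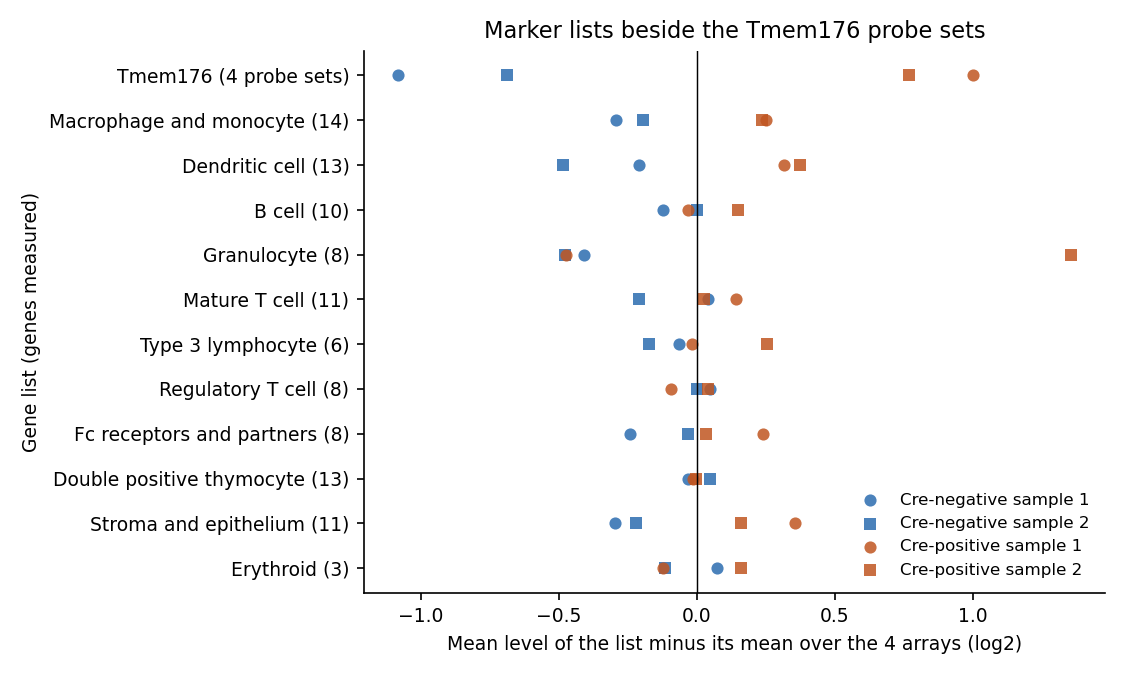
Mean log2 level of each list on each array minus its mean over the 4 arrays (horizontal axis), with the mean of the 4 Tmem176 probe sets in the first row; rows give the number of genes measured. Colours and symbols are as in the plot of the member signals. The macrophage and dendritic rows are split by group like the Tmem176 row. The stromal mean is split too, but it includes Col1a2 (difference 4.52), and the median difference of its 11 genes is −0.03. The Fc receptor mean, with Clec7a at 2.26, and the type 3 lymphocyte mean, with Ccr6 at 0.85, are split narrowly. The median differences of these lists are 0.03 and 0.11. In them 3 of 8 and 1 of 6 genes are higher without overlap, against 26.6% of all probe sets with a single symbol. The granulocyte row is set apart by Cre-positive sample 2.

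Genes with a pattern like that of the Tmem176 pair were found by the Euclidean distance, in log2 units over the 4 arrays, between deviations from each gene's mean, among 11028 other kept genes. Nearest to Tmem176a were the growth regulator gene Myc (0.10), the neuropilin gene Nrp1 (0.18) and Vwa5a (0.18). Myc read 6.09 and 6.52 without Cre against 7.97 and 7.62 with Cre. Nearest to Tmem176b were Ajuba (0.18), Sbf2 (0.22) and Zfp467 (0.23). Tmem176a and Tmem176b lay 0.42 from each other, and 39 genes lay nearer to Tmem176a and 15 nearer to Tmem176b than the other of the pair. Of the 6 genes, Nrp1, Vwa5a, Sbf2 and Zfp467 had further probe sets with smaller differences, the lowest at 0.31, 0.01, 0.22 and 0.64.

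**Figure D4:**
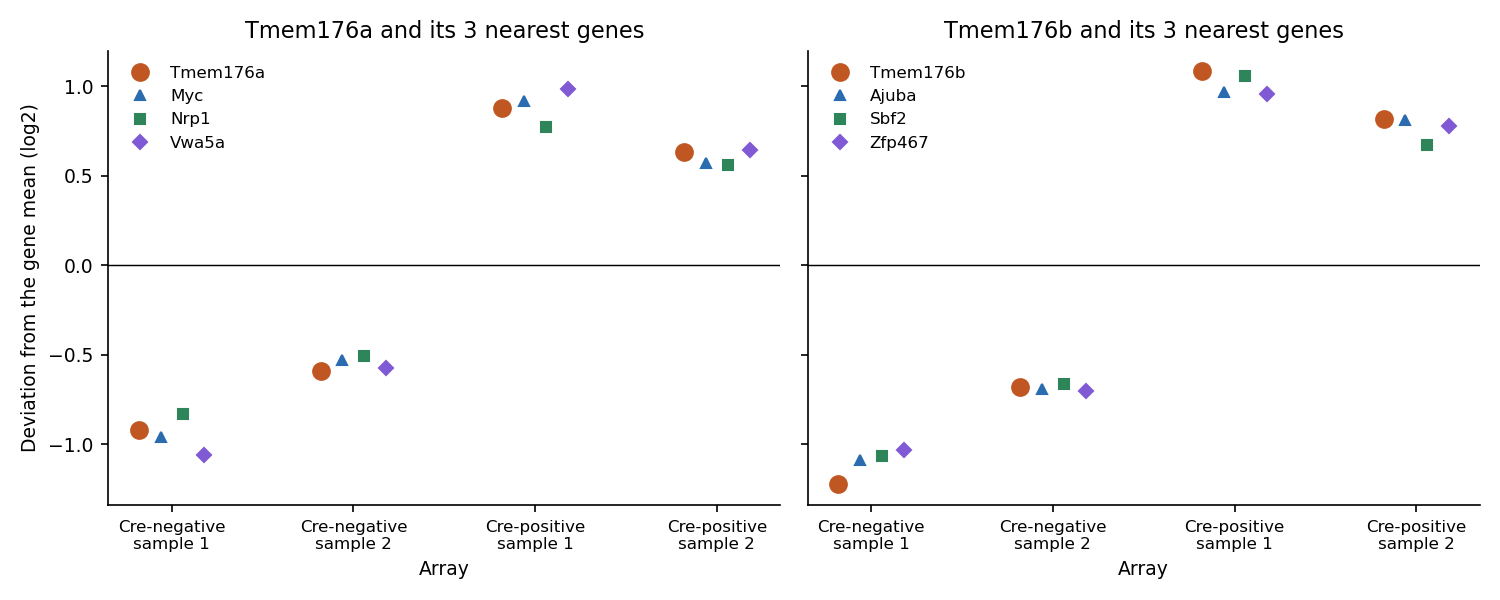
Deviation of each gene from its own mean over the 4 arrays (log2, vertical axis) on each array, for Tmem176a (left) and Tmem176b (right) and the 3 genes nearest to each. Large orange circles are the Tmem176 genes. On every array they and their neighbours lie on the same side of 0, below it in the Cre-negative and above it in the Cre-positive samples. The neighbours were chosen by closeness over these same 4 arrays, so the shared side follows from the choice.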

How the data were processed

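The deposited table holds log2 signals that the authors made with RMA (per the submitters' processing notes), a method that subtracts background, normalizes between arrays and summarises probes; the version is unknown and base 2 was assumed, as RMA returns it. Total RNA was labelled with biotin in a 2-cycle assay, per the labels' protocols, which list several starting amounts not tied to samples. Scanner files were not used here. Arrays give no counts, so their number, 2 per group, limits precision. Symbols came from the platform annotation; all 9 members matched the RefSeq table by Entrez identifier. Genes were read by their brightest probe set and kept from the 40th percentile of named probe sets (4.76). Cre-positive and Cre-negative mice were compared with limma 3.58.1 (lmFit, eBayes) in R 4.3.3; p-values were two-sided and adjusted by Benjamini-Hochberg over the 11639 kept genes; the procedure was tested on simulated data. The members and lists were chosen with earlier results of these data known. Named genes were all members, other Ms4a genes, Ikzf1, Xist, Kdm5d, in each list every called gene and up to 3 with the smallest p, and for members differing by at least 1 the 3 nearest profiles (symbols of clones and predicted genes passed over); further list genes were named after their values were seen. Some listed genes were not analysed here; Fcgr1 is in 2 lists. Promoters came from RefSeq; alignments used Biopython 1.88 and figures matplotlib 3.10.9. Alternatives varied the filter, probe set, scaling, variance prior, array weights, a replicate block and the arrays used.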

Additional observations from a re-analysis of the deposited data

How the results depend on the processing

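All 9 member genes, each by its brightest probe set, had a median difference of 0.38. Of them, 7 had arrays that did not overlap, 6 higher and 1, Ms4a4b, lower. Counted by probe set and not by gene, 26.6% of all named probe sets were higher and 19.4% lower without overlap. That share includes dim probe sets, and a share by gene was not computed. Averaging each gene's probe sets gave a median of 0.28, and it was 0.25 with arrays centred on the kept genes, an alternative chosen after seeing the data; with each array left out in turn it lay between 0.23 and 0.50, and 7 to 9 genes did not overlap, a count that cannot fall when an array is removed and so shows no stability. When probe sets with suffixes for several transcripts were dropped, which leaves no Tmem176b or Ms4a4c, 4 of 7 genes did not overlap. Tmem176a and Tmem176b were higher under every alternative that could be run. Ms4a6b, at −0.03, changed sign when its probe sets were averaged or Cre-positive sample 1 was left out (0.02 each), and Ms4a7 without Cre-negative sample 1 (−0.04). The 160 calls over all genes became 90 with the filter at the 60th percentile and 104 without such probe sets, where fewer genes were tested, and 3 to 99 with an array left out. The 7 list calls became 11 with no filter, the filter at the 20th percentile, the mean of probe sets or centring on all probe sets, 12 with a variance trend, 3 at the 60th percentile, 2 with kept genes centred and 0 to 5 with an array left out. Sample numbers are only names here: deviations of samples with the same number correlated at 0.18 over kept genes, from 2 pairs. With the number as a replicate block there were 821 calls, 21 of them in the lists, and Ms4a1 was called beside the Tmem176 pair. The causes were not tested.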
